A study of Mus musculus with 2 samples.

Results

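The 9 genes described here encode nuclear receptors that are central to transcription in hepatocytes, namely Hnf4a, Nr0b2, Nr1h3, Nr1i2, Nr1i3, Nr5a2, Rxra, Nr3c1 and Esr1. They were taken by name as a functional group, and all 9 were found among the 12393 genes named by probe sets of the array. Together they were read by 19 probe sets that name one of them alone. Liver RNA came from female mice, 2 months old on a C57BL/6J background, in which both copies of the apolipoprotein E gene are disrupted. One diet (OO) was chow with 10% (w/w) olive oil and the other (MAOO) was that chow with 10% (w/w) of an olive oil to which maslinic acid, a triterpene of olives, had been added, each for 4 weeks. The design allots 6 mice to a diet, but 1 array stands for each diet, and how many mice gave its RNA is not stated by the labels. The arrays are called OO-labelled and MAOO-labelled.

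Nuclear receptors are transcription factors, most of which bind a small lipophilic ligand and then switch cofactors on DNA. HNF4 alpha, the product of Hnf4a, maintains the hepatocyte expression programme. Retinoid X receptor alpha (Rxra) is the obligate partner of the lipid and xenobiotic sensors, among them the liver X receptor (Nr1h3), the pregnane X receptor PXR (Nr1i2) and the constitutive androstane receptor CAR (Nr1i3). LRH-1 (Nr5a2) activates bile acid genes, and SHP (Nr0b2), which has no DNA-binding domain, represses them by binding other receptors. The glucocorticoid receptor (Nr3c1) and oestrogen receptor alpha (Esr1) are steroid receptors.

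Every value below is a MAS5 signal, one intensity per probe set and array, and a log2 ratio is MAOO-labelled over OO-labelled. Signals under 40.02 on the deposited scale were set to that floor before the ratio, and a probe set was counted as measured where it reached 80.04 on at least 1 array. Without replicates there is no standard error and no test between the diets. Probe sets of 1 gene are the only repeat, with an SD of 0.23 in log2 ratio. They were read on the same arrays, so this SD holds no variation between arrays or mice. Signals of different probe sets were not compared with each other, since probes differ in brightness. Apoe, the disrupted gene, read 407.7 on the OO-labelled and 7630 on the MAOO-labelled array, which goes against the knockout label of the latter, so directions are between the arrays as labelled. In whole liver, fewer cells of a type and less RNA per cell cannot be told apart.

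By their brightest probe sets, 8 of the 9 receptors were measured and none of the 8 lay 1.5-fold apart between the arrays. The 4 that read higher were Nr1h3, Rxra, Nr1i3 and Nr3c1, and the 4 that read lower were Hnf4a, Nr0b2, Nr5a2 and Nr1i2. Their log2 ratios ran from -0.22 for Hnf4a to 0.29 for Nr1h3, with a median of -0.0029, against -0.0098 over the 5911 measured genes. Of all measured genes, 1.47% were higher by 1.5-fold or more and 1.57% lower by as much, so 0 of 8 is near the background. The median size of the log2 ratio was 0.066 over the 8 receptors and 0.12 over all measured genes. Of the 15 measured receptor probe sets, 1 of Hnf4a was at least 1.5-fold higher and 1 of Nr5a2 at least 1.5-fold lower, where 1.78% and 1.89% of all 8524 measured probe sets naming 1 gene were. Both disagreed with the other probe sets of their gene.

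**Figure D1:**
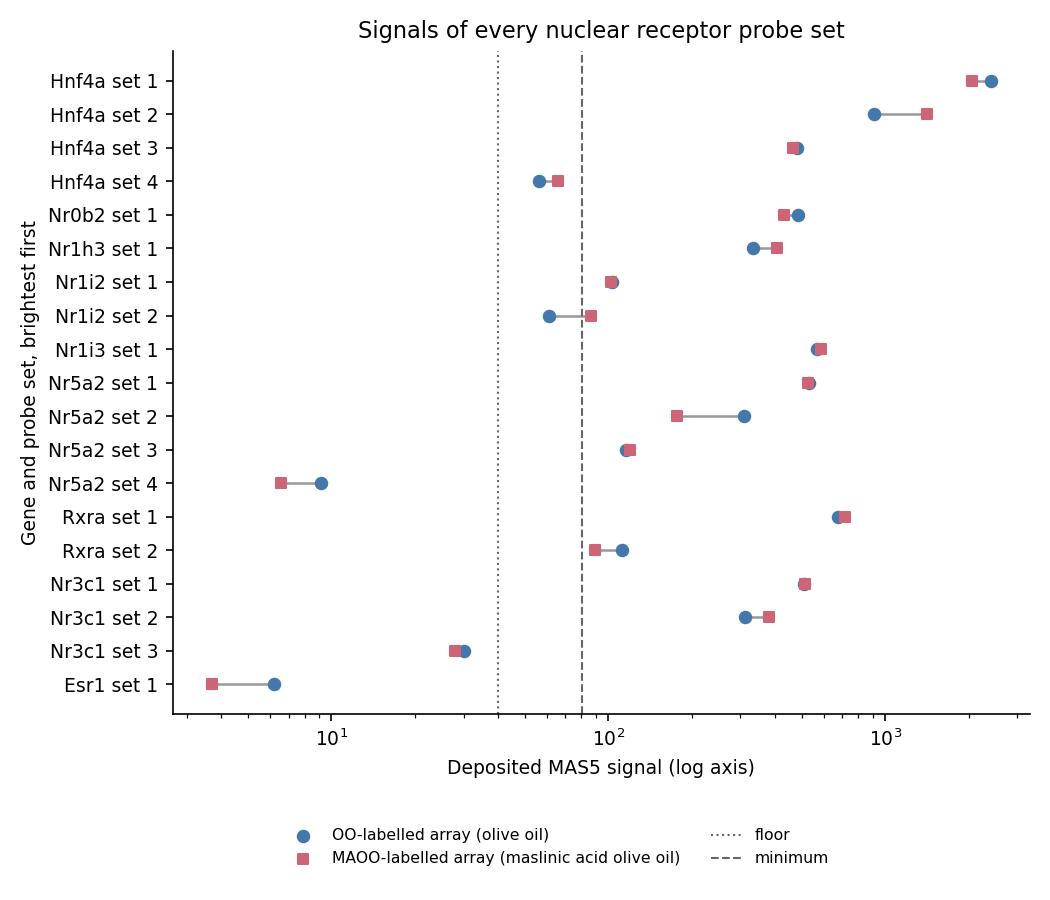
Deposited MAS5 signal (log axis) of the 19 nuclear receptor probe sets on the OO-labelled array (circles) and the MAOO-labelled array (squares), grouped by gene and numbered by brightness, with the floor of 40.02 (dotted) and the minimum of 80.04 (dashed). The widest gaps among measured probe sets are those of Nr5a2 set 2, at 310.2 and 176.9, and Hnf4a set 2, at 909.0 and 1417.6, while the single Esr1 probe set lies far under the floor on both arrays.

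Hnf4a, the receptor that holds the hepatocyte programme together, was read by 4 probe sets. The brightest, 1427001_s_at, read 2406.2 on the OO-labelled array and 2061.8 on the MAOO-labelled array, a log2 ratio of -0.22. The second, 1427000_at, read 909.0 and 1417.6, which is 1.56-fold higher and a log2 ratio of 0.64. The third, 1421983_s_at, read 481.4 and 464.7, a log2 ratio of -0.051. One probe set was thus higher on the MAOO-labelled array while both others that were measured were slightly lower. The 2 brightest probe sets are listed under the same source sequence in the platform annotation, which does not show whether they read the same part of it. Names ending in _s_at mark probe sets that can read several transcripts. Of all measured probe sets, 2.82% lay at least as far apart as 1427000_at. The range of 0.86 between the 3 probe sets was reached by 26 of the 395 genes with 3 measured probe sets, or 6.58%. The dimmest, 1450447_at, read 56.0 and 66.0 and was not counted as measured. With _s_at probe sets left out, Hnf4a rests on 1427000_at and would be the 1 receptor at least 1.5-fold higher. Which of these probe sets follows Hnf4a RNA was not tested.

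Nr5a2, which encodes LRH-1, an activator of bile acid and cholesterol transport genes, was also read by 4 probe sets. The brightest, 1456521_at, read 530.5 and 526.3, a log2 ratio of -0.011. The second, 1420410_at, read 310.2 and 176.9, which is 1.75-fold apart and a log2 ratio of -0.81. The third, 1449706_s_at, read 115.5 and 119.7, a log2 ratio of 0.052. Again 1 probe set stood apart from the others of its gene, this time by a lower signal on the MAOO-labelled array. Only 1.36% of measured probe sets lay as far apart as 1420410_at, and its range with the other 2 was reached by 28 of 395 genes, or 7.09%. The remaining probe set, 1449707_at, read 9.2 and 6.6, under the floor on both arrays.

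Nr0b2, the gene of the repressor SHP, read 485.6 on the OO-labelled array and 430.5 on the MAOO-labelled array with its single probe set, a log2 ratio of -0.17. Over all measured genes, 35.3% lay at least as far apart. It is a textbook target of LRH-1 and of the bile acid receptor FXR, and SHP in turn represses LRH-1.

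Hnf4a and Nr5a2 each have 2 annotated transcription starts in RefSeq (GRCm38.p6), and Nr0b2 has 1. Hnf4a and Nr5a2 are the genes with a measured probe set at least 1.5-fold apart between the arrays. For these 2, and for Nr0b2, whose product binds the products of both, the 250 bases before each start are shown. Each is given 5′ to 3′ on the strand of its gene, with capitals for the core receptor site AGGTCA, the longer LRH-1 type site CAAGGNCA or the TATA box TATAAA on either strand. An AGGTCA lies within a CAAGGNCA wherever N is T.
Nr0b2, chr4:133553126-133553375, plus strand: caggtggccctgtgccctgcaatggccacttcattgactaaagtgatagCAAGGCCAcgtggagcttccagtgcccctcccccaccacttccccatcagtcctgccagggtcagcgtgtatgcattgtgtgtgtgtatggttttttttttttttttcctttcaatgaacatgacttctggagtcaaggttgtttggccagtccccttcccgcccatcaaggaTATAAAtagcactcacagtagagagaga
Nr5a2 outer start, chr1:136960449-136960698, minus strand: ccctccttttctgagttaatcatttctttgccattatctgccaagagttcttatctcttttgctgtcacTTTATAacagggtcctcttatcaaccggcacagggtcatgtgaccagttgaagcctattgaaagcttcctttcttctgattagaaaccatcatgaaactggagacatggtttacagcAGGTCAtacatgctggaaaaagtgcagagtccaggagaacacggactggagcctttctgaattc
Nr5a2 inner start, chr1:136953631-136953880, minus strand: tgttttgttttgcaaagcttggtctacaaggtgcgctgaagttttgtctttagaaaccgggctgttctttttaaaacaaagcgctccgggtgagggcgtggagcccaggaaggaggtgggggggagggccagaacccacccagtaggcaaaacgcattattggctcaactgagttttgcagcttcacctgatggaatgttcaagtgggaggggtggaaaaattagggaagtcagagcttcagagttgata
Hnf4a outer start, chr2:163506607-163506856, plus strand: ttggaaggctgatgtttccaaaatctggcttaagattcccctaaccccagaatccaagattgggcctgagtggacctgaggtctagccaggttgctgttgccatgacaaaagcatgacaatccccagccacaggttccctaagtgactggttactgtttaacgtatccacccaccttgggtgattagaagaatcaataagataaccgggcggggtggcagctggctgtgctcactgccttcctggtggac
Hnf4a inner start, chr2:163546905-163547154, plus strand: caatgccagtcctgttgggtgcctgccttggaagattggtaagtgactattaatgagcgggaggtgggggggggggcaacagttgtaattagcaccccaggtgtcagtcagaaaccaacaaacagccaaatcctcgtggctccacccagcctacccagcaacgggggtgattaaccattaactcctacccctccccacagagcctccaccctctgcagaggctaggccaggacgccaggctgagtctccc

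The Nr0b2 window held a CAAGGNCA from 201 to 194 bases before the start and a TATAAA from 28 to 23 bases before it. The outer Nr5a2 window held an AGGTCA from 64 to 59 bases before the start and a TATAAA on the opposite strand from 181 to 176 bases before it. In the inner Nr5a2 window and both Hnf4a windows these letters were not found. Of the 13 windows searched for 8 of the receptors, 3 held any of these letters, and the remaining window was of Rxra. It held AGGTCA from 48 to 43 bases before the start, and on the opposite strand from 87 to 82 bases before it. Of all 32851 RefSeq windows of the same length, 14% held AGGTCA, 5.53% CAAGGNCA and 12.4% TATAAA, so each match is a description of letters and no more. Adult hepatocytes use mainly the inner Hnf4a promoter, as background. The probe positions were not used here, so no probe set could be assigned to a start.

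Rxra, the shared partner of the lipid and xenobiotic sensors, had 2 probe sets, and both were measured. The brighter, 1454773_at, read 675.9 on the OO-labelled array and 718.3 on the MAOO-labelled array, a log2 ratio of 0.088. The dimmer, 1425762_a_at, read 111.9 and 89.7, a log2 ratio of -0.32. The 2 probe sets lay on opposite sides of 0, and 17.2% of genes with 2 measured probe sets had a range at least as wide.

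Nr1h3, which encodes the oxysterol sensor LXR alpha, read 331.8 on the OO-labelled array and 406.9 on the MAOO-labelled array with its single probe set. This is 1.23-fold, and its log2 ratio of 0.29 was above those of the 7 other measured receptors. Of all measured genes, 15.3% lay at least as far apart. The SD of 0.23 between probe sets of a gene cannot judge this difference, because it holds no variation between arrays or mice.

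The xenobiotic sensors read alike on both arrays by their brightest probe sets. Nr1i3, which encodes CAR, the receptor behind phenobarbital induction, read 567.9 and 585.9, a log2 ratio of 0.045. Nr1i2, which encodes PXR, read 102.8 and 102.1 with 1425723_at, a log2 ratio of -0.0098. Its other probe set, 1451807_at, which is listed under the same source sequence in the annotation, read 61.0 and 86.4, a log2 ratio of 0.50. That probe set reached the minimum on the MAOO-labelled array alone, so it could be counted only because it was higher there, and with a floor of 80.04 its log2 ratio was 0.11.

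Nr3c1, the glucocorticoid receptor gene, read 510.2 on the OO-labelled array and 511.6 on the MAOO-labelled array with its brightest probe set, a log2 ratio of 0.0040 that read -0.0044 after quantile normalization. Its second probe set read 311.5 and 379.6, a log2 ratio of 0.29, and the third read 30.2 and 27.9, under the floor on both arrays. The 2 measured probe sets differed by 0.28, a range reached by 30.9% of genes with 2. Esr1, the oestrogen receptor alpha gene, read 6.2 and 3.7 with its single probe set. Both signals lie under the floor, so no ratio is given, and without detection calls a dim probe set cannot be told from a gene at a low level.

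**Figure D2:**
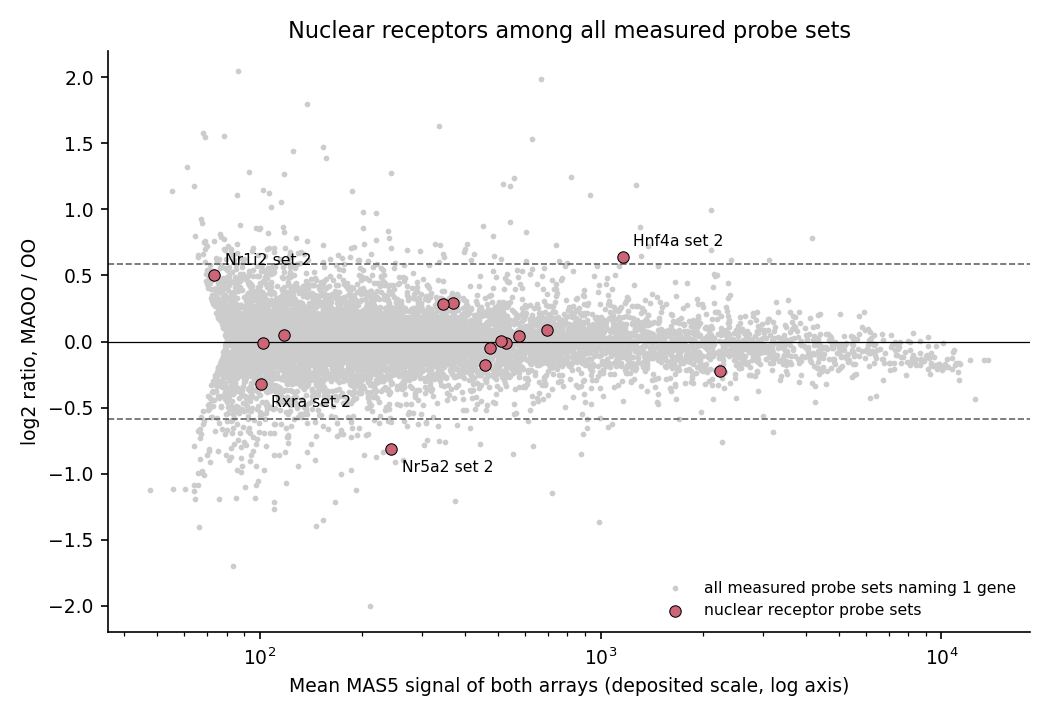
Log2 ratio of the MAOO-labelled over the OO-labelled array against the mean signal of both arrays (log axis) for all 8524 measured probe sets naming 1 gene (grey, 4 of them outside the axis) and the 15 measured nuclear receptor probe sets (red), with dashed lines at 1.5-fold. Hnf4a set 2 lies above the upper line, Nr5a2 set 2 below the lower line, and the other 13 between them.

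By their brightest probe sets, other members of the receptor superfamily spread more widely around 0 than the 8 receptors above, though many are dim. Over all 15 measured probe sets of those receptors, log2 ratios ran from -0.81 to 0.64. The contrast thus holds for the brightest probe sets alone. Of 40 other receptor genes, 33 were named by a probe set and 12 were measured, 5 higher and 7 lower, with a median log2 ratio of -0.086. The median took the other sign, 0.047, with a minimum signal of 160.1. Nr2c2, an orphan receptor also called TR4, read 89.7 on the OO-labelled array and 45.6 on the MAOO-labelled array, a log2 ratio of -0.98. Nr1d1, the clock repressor REV-ERB alpha, read 59.7 and 90.7, a log2 ratio of 0.60. Each of these reached the minimum only on the array where it was higher. Among the 12, Nr1d1 was the 1 at least 1.5-fold higher and Nr2c2 the 1 lower by as much. Of all measured genes, 1.47% were higher and 1.57% lower by as much. Under a mean signal of 160, where both lie, 5.79% of genes lay 1.5-fold apart. Rxrb, a second retinoid X receptor, read 269.2 and 182.4, a log2 ratio of -0.56 beside the 0.088 of Rxra. Ppara, the fatty acid sensor that also pairs with Rxra, read 1541.4 and 1186.8, a log2 ratio of -0.38, and Thra, a thyroid hormone receptor, had a log2 ratio of -0.37. Nr1h4, which encodes the bile acid sensor FXR, read 742.0 and 766.4, a log2 ratio of 0.047. Of the others, Nr1d2 lay at 0.30, Rora at 0.21 and Nr2f2 at 0.18. Nr2c1 lay at -0.067, Nr2f6 at -0.11 and Esrra at -0.18, and Esrra also reached the minimum on 1 array alone. The other measured probe set lay at -0.18 for Rora, at 0.53 for Nr2f2 and at -0.012 for Nr2f6.

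**Figure D3:**
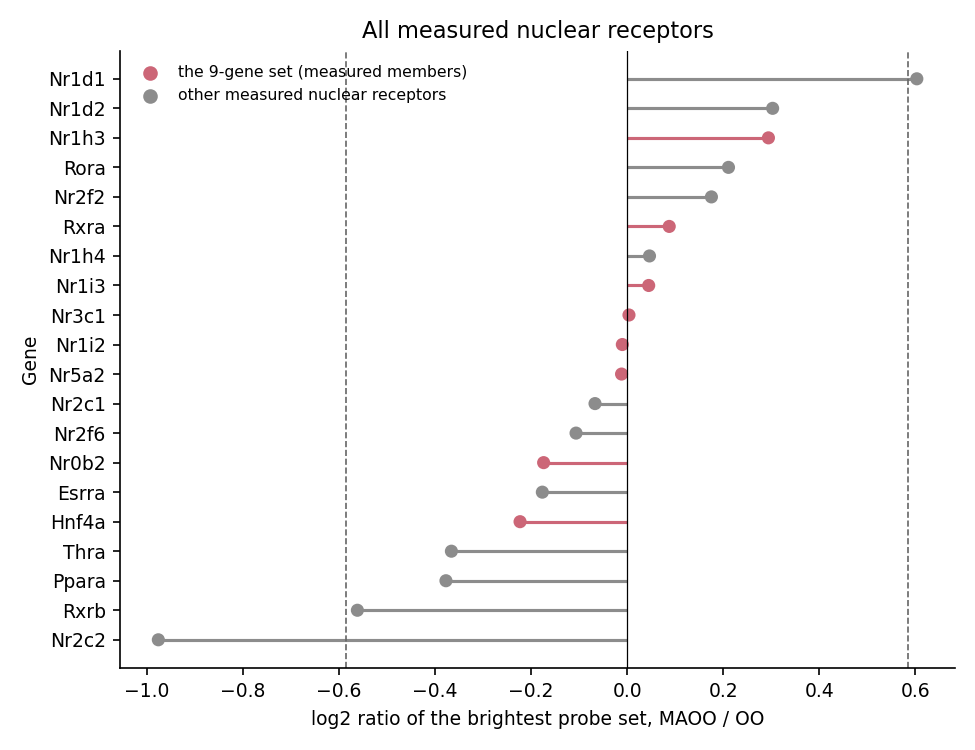
Log2 ratio of the brightest probe set of each measured nuclear receptor, for the 8 measured members of the 9-gene set (red) and 12 other receptors (grey), with dashed lines at 1.5-fold. The 8 lie between -0.22 and 0.29, and Nr2c2 at -0.98 and Nr1d1 at 0.60 lie outside the lines. Nr2c2 and Nr1d1 each reached the minimum signal only on the array where they were higher.

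Genes that act with the receptors had medians near 0 by their brightest probe sets. Of 20 coregulators 14 were measured, 5 higher and 9 lower, with a median log2 ratio of -0.063 and 0 at least 1.5-fold apart. Of all measured genes, 1.47% were higher and 1.57% lower by as much, so a count of 0 in a short list is near the background. The extremes among the coregulators were Med1, the Mediator subunit that docks to receptors, at -0.43 and the deacetylase gene Sirt1 at 0.37. The other measured probe set of Med1 lay on the other side of 0, at 0.10. Nrip1 lay at -0.096 by its brightest probe set and at -0.62 by its other. Crebbp, an acetyltransferase, lay at -0.35 and Gps2, of the NCoR corepressor complex, at 0.32, and each of these last 2 reached the minimum signal only on the array where it was higher. Of 14 cytosolic chaperones that hold steroid receptors and CAR, 11 were measured, 6 higher and 5 lower, with a median of 0.080 and 0 at least 1.5-fold apart. Dnajc7, the co-chaperone that retains CAR in the cytoplasm, read 217.2 on the OO-labelled array and 146.1 on the MAOO-labelled array, a log2 ratio of -0.57. Hsp90aa1 lay at 0.32, with other probe sets down to -0.36, Dnajb1 at -0.27 and Fkbp5 at 0.20. Hspa8 lay at -0.028, with other probe sets up to 0.69.

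Target genes were taken receptor by receptor, and the lists share some genes, such as Tat, Pck1 and G6pc. Of the CAR and PXR targets 14 of 19 were measured, 7 higher and 7 lower, with a median log2 ratio of -0.0057 that read 0.073 after quantile normalization or removal of the trend on signal. Cyp2b10, the marker gene of CAR activity, read 21.4 on the OO-labelled array and 117.1 on the MAOO-labelled array, 2.93-fold higher or more, and all 3 of its probe sets were higher. The other CAR and PXR targets named by size were Gadd45b, a stress gene that also binds CAR, at -0.99, Cyp3a13 at 0.36 and the canalicular transporter gene Abcc2 at -0.30. Cyp2c29, another CAR target, read 7971.8 and 8001.6, and Cyp3a11, the main PXR target, read 10766.8 and 9275.7, a log2 ratio of -0.22. Both were named after their values were seen. Gadd45b, at 117.0 and 59.0, and Cyp2b10 each reached the minimum signal only on the array where they were higher. Cyp2b10 was the 1 target in the list at least 1.5-fold higher and Gadd45b the 1 lower by as much, where 1.47% and 1.57% of all measured genes were. The log2 ratio of Nr1i3 was 0.045, and that of Nr1i2 was -0.0098 by its brightest probe set and 0.50 by its dim other.

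All 12 LXR targets on the array, of 13 listed, were measured, of which 10 were lower and 2 higher on the MAOO-labelled array, where 48.0% of all measured genes were higher. Their median log2 ratio was -0.20, against -0.0098 over all measured genes, and lay between -0.21 and -0.16 under the 12 alternatives run. The floor and minimum settings among these could not move it, because every LXR target passed each of them. The median was -0.21 with equal medians, -0.18 with quantile normalization and -0.16 with the trend on signal removed. With the mean of all measured probe sets it was -0.20. The count of 10 lower rests on the brightest probe sets. Of those 10, Lpl, Cyp7a1 and Abca1 each had another measured probe set that was higher, at 0.47, 0.26 and 0.20. Abcg1, a cholesterol exporter, lay at -0.47, Mylip, which degrades the LDL receptor, at -0.38 and the lipogenic regulator Srebf1 at -0.35. Pltp, the phospholipid transfer protein gene, went the other way at 2466.6 and 3787.3, a log2 ratio of 0.62, while Nr1h3 itself lay at 0.29. Pltp was the 1 LXR target at least 1.5-fold higher and none was lower by as much, where 1.47% and 1.57% of all measured genes were. The hepatocyte markers, also lower on that array, had a median of -0.16, or -0.044 after quantile normalization, and their part in the LXR target values was not tested.

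Bile acid genes under SHP, LRH-1 and FXR differed little. Of 14 such genes 12 were measured, 6 higher and 6 lower, with a median log2 ratio of 0.0076 and 0 at least 1.5-fold apart. Of all measured genes, 1.47% were higher and 1.57% lower by as much. Fgfr4, the receptor for the intestinal hormone that restrains bile acid synthesis, lay at 0.32, its co-receptor gene Klb at -0.18, the bile salt export pump gene Abcb11 at -0.14 and the phospholipid floppase gene Abcb4 at -0.13. Cyp7a1, the rate-limiting enzyme of bile acid synthesis, read 676.2 and 662.4, a log2 ratio of -0.030, and was named after its value was seen. Its other measured probe set lay at 0.26. Over all measured probe sets of the 12 genes, log2 ratios ran from -0.22 for Cyp7b1 to 0.38 for Baat.

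Of 17 measured HNF4 alpha targets 7 were higher and 10 lower, beside the 48.0% of all measured genes that were higher. Their median log2 ratio of -0.10 turned to 0.0062 with quantile normalization. Apoa4 was 1.53-fold higher at 1902.7 and 2914.9, G6pc, the glucose-6-phosphatase gene, lay at -0.56, Apob at -0.29 and the pyruvate kinase gene Pklr at 0.26. Many of these genes are bright, and measured genes with a mean signal over 1000 had a median of -0.035. Of 9 hepatocyte markers on the array 8 were lower, and their summed signal was 78805 on the OO-labelled array and 71456 on the MAOO-labelled array.

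Glucocorticoid receptor targets went both ways. Of 16 genes 15 were measured, 5 higher and 10 lower, with a median log2 ratio of -0.14, or -0.32 with _x_at and _s_at probe sets left out, and 2 were higher and 2 lower by 1.5-fold or more, where 1.47% and 1.57% of all measured genes were. Mt2, a metallothionein gene, read 588.9 and 1270.6, a log2 ratio of 1.11. Zbtb16, a dim gene at 54.5 and 92.3, lay at 0.76 and reached the minimum on the MAOO-labelled array alone. Igfbp1, which is also held down by insulin, read 3952.9 and 2461.1, a log2 ratio of -0.68, and the phosphatase gene Dusp1 lay at -0.59. Tsc22d3, a direct target of the receptor also called GILZ and named after its value was seen, had 3 probe sets whose log2 ratios ran from -0.33 to 0.24. The targets thus spread from -0.68 to 1.11, beside Nr3c1 values of 0.0040 by its brightest and 0.29 by its second probe set.

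**Figure D4:**
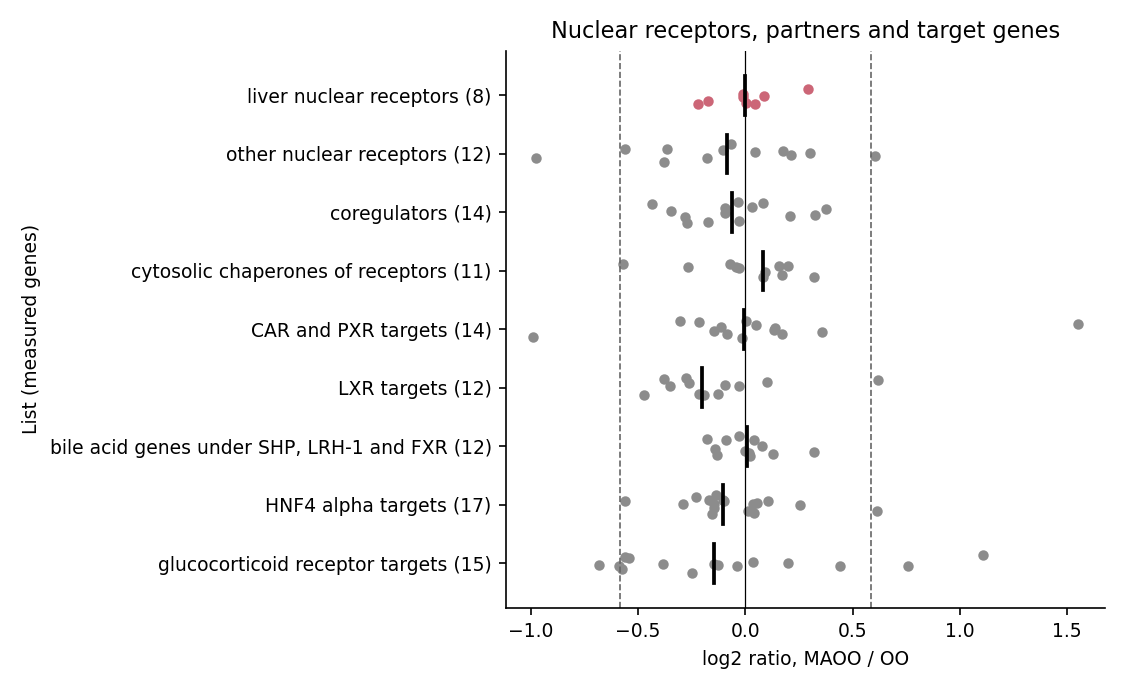
Log2 ratio of each measured gene (points) and the median (black bar) for the 8 measured nuclear receptors (red) and for other receptors, coregulators, chaperones and target gene lists (grey), with the number of measured genes in brackets and dashed lines at 1.5-fold. The receptors lie close to 0, the LXR targets have a median of -0.20, and Cyp2b10, drawn at the bound its floor allows, is the point farthest to the right.

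Markers of other liver cells were read beside these values. Of 11 macrophage and Kupffer cell markers measured 6 were higher and 5 lower, and their summed signals were 12098 and 12057 on the OO-labelled and the MAOO-labelled array. Among them Marco, a scavenger receptor of macrophages, read 338.1 and 84.6, which is 4.00-fold lower and a log2 ratio of -2.00. All 7 measured endothelial markers were lower, with a summed signal of 2714 and 2419 over the 8 on the array, while 7 of 8 measured markers of stellate cells and matrix lay higher, with sums of 4966 and 5076 over 12. Of the lymphocyte markers 2 were measured and went opposite ways, Ighm at 322.9 and 936.2 and Ptprc at 367.0 and 333.4, within sums of 790.8 and 1375. The T cell genes Cd3e, Cd3d, Cd4 and Cd8a lay under the floor. The 4 cholangiocyte markers lay under the floor on both arrays, and of the erythroid markers Alas2 read 94.1 and 150.9. The part of these shifts in the receptor values was not tested.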

How the data were processed

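Liver RNA was hybridised as biotin-labelled cRNA to 2 one-colour Affymetrix arrays. The deposited values are linear signal intensities from MAS5, as computed by the authors according to the submitters' processing notes, which name no version. Both arrays already had a 2% trimmed mean of 200.1, and 48.4% and 48.2% of probe sets lay under the floor. They were rescaled to 500, with a floor of 100 and a minimum of 200 after scaling, which are 40.02 and 80.04 on the deposited scale, the scale of all printed signals. Of 22690 probe sets, 20380 named 1 gene after leaving out 64 controls, of which 20351 matched the GRCm38.p6 gene table and 0 changed symbol. A gene was represented by its brightest probe set.

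With 1 array per diet nothing was tested, and the number of arrays limits the precision. The 9 members, 8 gene lists and 7 marker lists were chosen with earlier results of these data known. Named genes were the members, every measured receptor and up to 4 genes per list by size, with exceptions stated. The ratio and count steps were tested on simulated data. Promoter windows came from RefSeq. Python 3.11.15, numpy 2.4.6, pandas 2.3.3, statsmodels 0.14.6 and matplotlib 3.10.9 were used. Alternatives covered scaling, floor, minimum signal and the choice of probe set.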

Additional observations from a re-analysis of the deposited data

How the results depend on the processing

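All alternatives were listed with earlier results of these data known. No paired analysis was possible because there is only 1 array for a diet, and no array could be left out. Over 12 alternatives, 91 of 95 values of the receptors moved by less than the SD of 0.23 between probe sets of a gene, and the sign turned in 6. The floor and minimum settings could not move these values, because the brightest probe sets of the measured receptors lay above every floor tried. The count of 91 was thus largely fixed beforehand. All 4 values that moved more did so with the choice of probe set. With _x_at and _s_at probe sets left out, Hnf4a rested on 1427000_at at 0.64, and 1 receptor in place of 0 was at least 1.5-fold higher. With the mean of all measured probe sets, Hnf4a lay at 0.12, Nr1i2 at 0.25, Nr5a2 at -0.26 and Rxra at -0.12. The median of the measured receptors ran from -0.0094 to 0.084. Of 144 medians of the other lists 144 moved by less than 0.23 and 7 turned sign or came to 0. Each of these medians was itself under 0.23 in size before any change. That limit would therefore pass a median that fell to 0, and it does not measure how stable the medians are. Dim probe sets carry the least certain ratios: under a mean signal of 160, 5.79% of genes lay 1.5-fold apart. Low signals also set what can be said of Esr1.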
